A study of Mus musculus with 44 samples.

Results

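In cultured mouse haematopoietic progenitor cells, 2004 of 135391 H3K27me3 regions, or 1.48% of the list, held 2 or more separate RING1B peaks and shared no base with a PCGF1 peak. They were picked from 3 deposited peak lists by overlap of at least 1 bp, so the number of RING1B peaks and the lack of PCGF1 describe the choice and are no finding. They are called here multi-RING1B regions without PCGF1. They are set beside 4824 regions with 1 RING1B peak and no PCGF1, 287 regions with 2 or more RING1B peaks and PCGF1, and 127732 regions with neither. A further 423 regions had 1 RING1B peak with PCGF1, and 121 had PCGF1 without RING1B.

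The series profiled Polycomb proteins and histone marks by chromatin immunoprecipitation and sequencing in haematopoietic progenitors with and without PCGF1. Its labels describe 44 libraries in 23 groups, and 6 of the libraries stand behind the 3 lists. All 6 came from IdHP cells, bone marrow progenitors of strain B6CBAF1/J, grown on TSt4 stroma with IL7, SCF and Fl3L and taken at passage 15 to 18. The PCGF1 list came from 2 FLAG libraries of Pcgf1 -/- cells that carried FLAG-PCGF1, precipitated with the M2 antibody to the FLAG tag. The RING1B list came from 2 libraries of Pcgf1 fl/fl cells made with an in-house antibody, and the H3K27me3 list from 2 libraries of Pcgf1 fl/fl cells made with a Millipore antibody. PCGF1 was therefore mapped as a tagged protein put back into knockout cells, and not in the cells that gave the other lists. A further FLAG library of Pcgf1 -/- cells with the construct named NC was not analysed here. Each list stands for its pair of libraries, so no value has a replicate. Intervals below are 95% and cover counting error only: exact Clopper-Pearson for shares, and order-statistic (binomial) for medians. Regions and peaks are not replicates of a condition, and no test was made.

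RING1B is the ubiquitin ligase at the core of Polycomb repressive complex 1 (PRC1), which places ubiquitin on histone H2A at lysine 119. Polycomb repressive complex 2 (PRC2) writes H3K27me3, a mark of silenced developmental genes. Canonical PRC1 holds a CBX protein that binds this mark, whereas variant PRC1 forms lack CBX. PCGF1 defines a variant form, PRC1.1, which is brought to unmethylated CpG-rich DNA by KDM2B and also contains BCOR. Of the other PRC1 subunits in the series, PHC2, a part of canonical PRC1, was not analysed here.

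Most of the regions were near the lower limit of the rule. There were 1208 regions with exactly 2 RING1B peaks (60.3%, 58.1 to 62.4), 435 with 3 (21.7%, 19.9 to 23.6), 177 with 4 and 87 with 5. Only 97 held 6 or more (4.84%, 3.94 to 5.87) and 20 held 10 or more, up to 27 in one region. The strip between inside and outside the rule was thin in places. In regions with exactly 2 peaks the smaller of the overlaps had a median of 467 bp (433 to 500), and 90 of them (7.45%) rested on an overlap under 100 bp. The region at chr10:18866480-18869080 stood inside through an overlap of 2 bp. The region at chr2:22536160-22551440 stood outside, with 1 RING1B peak on it and the next one 1 bp from its border. Of the regions with 1 RING1B peak and no PCGF1, 740 (15.3%) had another RING1B peak within 1000 bp of the border. On the PCGF1 side, chr6:41555790-41560710 stood inside with a PCGF1 peak 52 bp away. At chr6:122289360-122296100, a region with 2 RING1B peaks stood outside through 15 bp under a PCGF1 peak.

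Most H3K27me3 regions with several RING1B peaks lacked PCGF1, but a smaller share of them did so than of all regions. Of the 2291 regions with 2 or more RING1B peaks, 2004 had no PCGF1 peak (87.5%, 86.0 to 88.8), against 4824 of 5247 regions with 1 RING1B peak (91.9%, 91.2 to 92.7) and 134560 of all 135391 regions (99.4%). The rule used this lack, so the shares are a description. The share was 89.5% (87.7 to 91.1) with 2 peaks, 88.6% (85.4 to 91.3) with 3, 83.5% (79.0 to 87.5) with 4 or 5 and 72.4% (64.0 to 79.8) with 6 or more. It was thus lower where RING1B peaks were many, although the region with the most peaks had no PCGF1. By region width the share without PCGF1 was 99.1% (97.3 to 99.8) at 2 to 5 kb, 89.7% (87.0 to 92.0) at 10 to 20 kb and 66.3% (58.6 to 73.4) over 50 kb. By H3K27me3 height it was 98.8% (97.5 to 99.5) in the lowest 25% of the regions and 64.7% (60.6 to 68.6) in the highest 25%. By the highest RING1B fold in the region it was 96.3% (94.5 to 97.7) in the lowest 25% and 73.5% (69.7 to 77.0) in the highest 25%. Wider regions had more RING1B peaks and greater height (Spearman's rho of width with number 0.47 and with height 0.69 over the 2004 regions), so the parts of width, height and number in these shares cannot be told apart here.

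**Figure D1:**
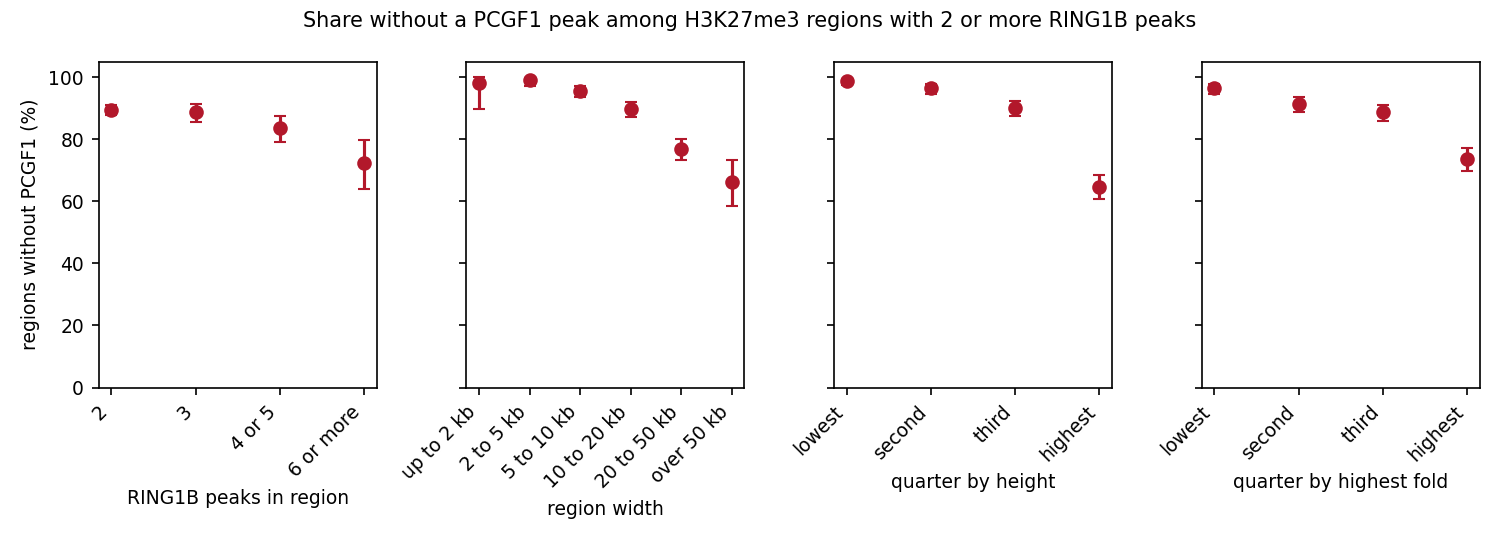
Share of H3K27me3 regions without a PCGF1 peak (percent, y axis) among the 2291 regions with 2 or more RING1B peaks, split from left to right by number of RING1B peaks, region width, H3K27me3 height in 4 classes of equal size and the highest RING1B fold in 4 such classes. Points are shares and bars exact 95% Clopper-Pearson intervals, which cover counting error only. The lowest point, 64.7%, is the 25% of greatest height.

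The regions were a small part of the H3K27me3 territory and held a large part of the RING1B on it. Their 35.7 Mb made up 7.38% of the bases under H3K27me3 and contained 44.7% of the H3K27me3 bases that also lay under RING1B. They carried 5529 RING1B peaks, which were 22.1% of all 24987 RING1B peaks and 49.9% of the 11081 that touched H3K27me3. The rule asks for several RING1B peaks, so a high share was fixed in part by the choice. RING1B covered 26.3% of all their bases, and the median region had 29.6% (27.5 to 30.9) of its bases under RING1B. The median was 19.8% (18.8 to 21.0) in regions with 1 RING1B peak and no PCGF1, and 28.3% (24.4 to 31.7) in regions with several peaks and PCGF1.

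Coverage by RING1B ranged from 0.711% to 97.5%. In 319 regions (15.9%, 14.3 to 17.6) under 10% of the bases were covered, and these were wide, with a median width of 25160 bp. Coverage was 75% to 90% in 139 regions and above that in 23. The highest coverage was at chr17:24954890-24982420, where 97.5% of 27530 bp lay under 2 RING1B peaks 690 bp apart, one of them 54413 bp wide with a fold of 6.34. The next were chr7:97632240-97656330 at 97.0% and chr13:19699450-19727770 at 96.7%, each with 2 peaks. The others of the 6 highest, chr4:88513950-88529250, chr3:135024410-135038580 and chr19:34365400-34379670, were covered to at least 94.4%. In all 6 the peaks were 2 in number and under 1000 bp apart. Among the 2004 regions, coverage went with higher peak folds (Spearman's rho 0.42 with the highest fold) and, over all widths, with lower H3K27me3 height (rho -0.21). In the width classes from 5 kb up, the medians of height stood the other way. Regions under 5 kb were not split by coverage. At 10 to 20 kb the median height was 125 (122 to 128) in the more covered 50% of regions and 118 (116 to 121) in the less covered 50%. The medians stood in the same order, with intervals that overlapped, at 5 to 10 kb (106 and 99.03), 20 to 50 kb (144 and 142) and over 50 kb (179.9 and 171). The coefficients describe regions that share libraries.

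The RING1B peaks of a region lay close together. Between neighbouring RING1B peaks of the same region there were 3647 gaps, with a median of 1360 bp (1305 to 1425) and a middle 50% of 862 to 3136 bp. In regions with several peaks and PCGF1 the median gap was 1488.5 bp (1307 to 1622, n = 720), and between all neighbouring RING1B peaks of the list it was 14009.5 bp (13480 to 14617, n = 24960). Gaps within a region are bounded by its width, so a shorter median than that of the whole list was fixed by the rule. The shortest gap was 661 bp, which was also the shortest in the whole RING1B list, so closer peaks do not occur as separate entries. Gaps under 1000 bp made up 36.0% (34.4 to 37.6) in these regions, 33.75% (30.3 to 37.3) in regions with several peaks and PCGF1, and 11.9% (11.5 to 12.3) over the whole list. In 558 regions (27.8%, 25.9 to 29.9) every gap was under 1000 bp, and in 1040 (51.9%) every gap was under 2000 bp. At the other end, 196 regions (9.78%, 8.51 to 11.2) had a gap of 10000 bp or more. Whether closely spaced peaks are separate sites or pieces of one stretch was not tested.

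**Figure D2:**
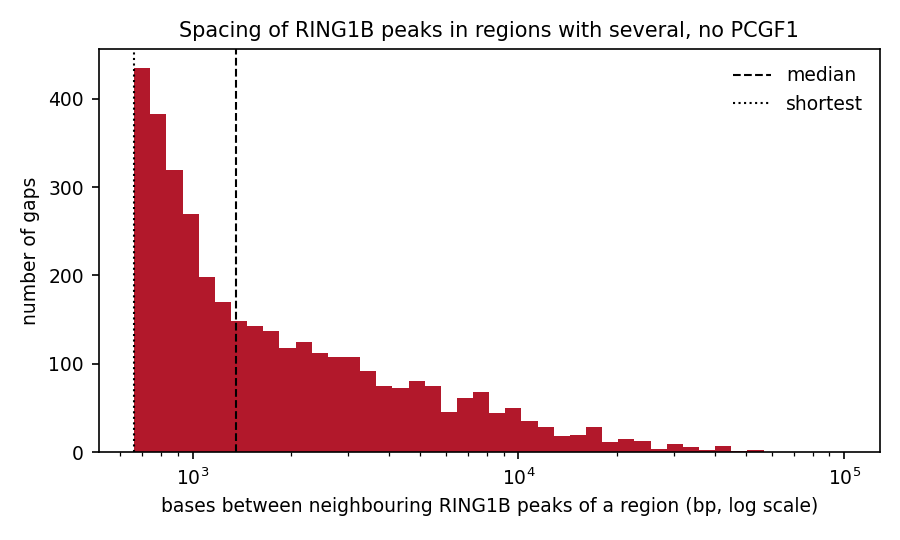
Number of gaps (y axis) by gap length in bp on a log scale (x axis) for the 3647 pairs of neighbouring RING1B peaks in the same PCGF1-free region. The dotted line marks the shortest gap, 661 bp, and the dashed line the median, 1360 bp. The count is greatest just above the shortest gap.

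The region with the most RING1B peaks was chr6:52797190-52892350, with 27 peaks in 95160 bp. Their folds were even, 2.76 to 3.65, their gaps ran from 663 to 3623 bp, and together they covered 59.1% of the region. Its H3K27me3 height of 152 ranked 2149 of 135391, and the nearest PCGF1 peak was 345 kb away. The region was a dense row of weak RING1B peaks with no dominant one. The region at chr5:92742450-92826660 was alike, with 18 peaks of fold 2.46 to 4.11, 31.0% covered and 270.5 kb from PCGF1. So was chr2:91122970-91242530, with 16 peaks of fold 2.74 to 3.55, though only 15.5% of its bases were covered.

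The other regions of the 6 with the most peaks had stronger and wider RING1B peaks. At chr15:102746200-102980960, the widest of the 2004 regions at 234760 bp, 17 peaks covered 45.7%. Its 3 peaks of highest fold, 4.37 to 4.93, lay left of its middle, the widest of them 34352 bp, and a stretch of 40988 bp right of the middle had no RING1B peak. Its H3K27me3 height of 289.8 ranked 185, and a PCGF1 peak lay 18.1 kb outside it. The region at chr2:74490780-74601760 had 14 peaks, with folds of 2.78 to 5.38 and 34.1% covered, and its stronger and wider peaks lay in its left part. The region at chr19:43605960-43682330 had 16 peaks, of which 14 had folds of 2.76 to 3.78 and the ones at its borders 5.65 and 9.70. The border peak of fold 9.70 spanned 14121 bp, of which 4182 bp were inside the region. The nearest PCGF1 peak was 6.46 kb away, and a RING1B peak that touched this region held PCGF1 beyond the border.

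**Figure D3:**
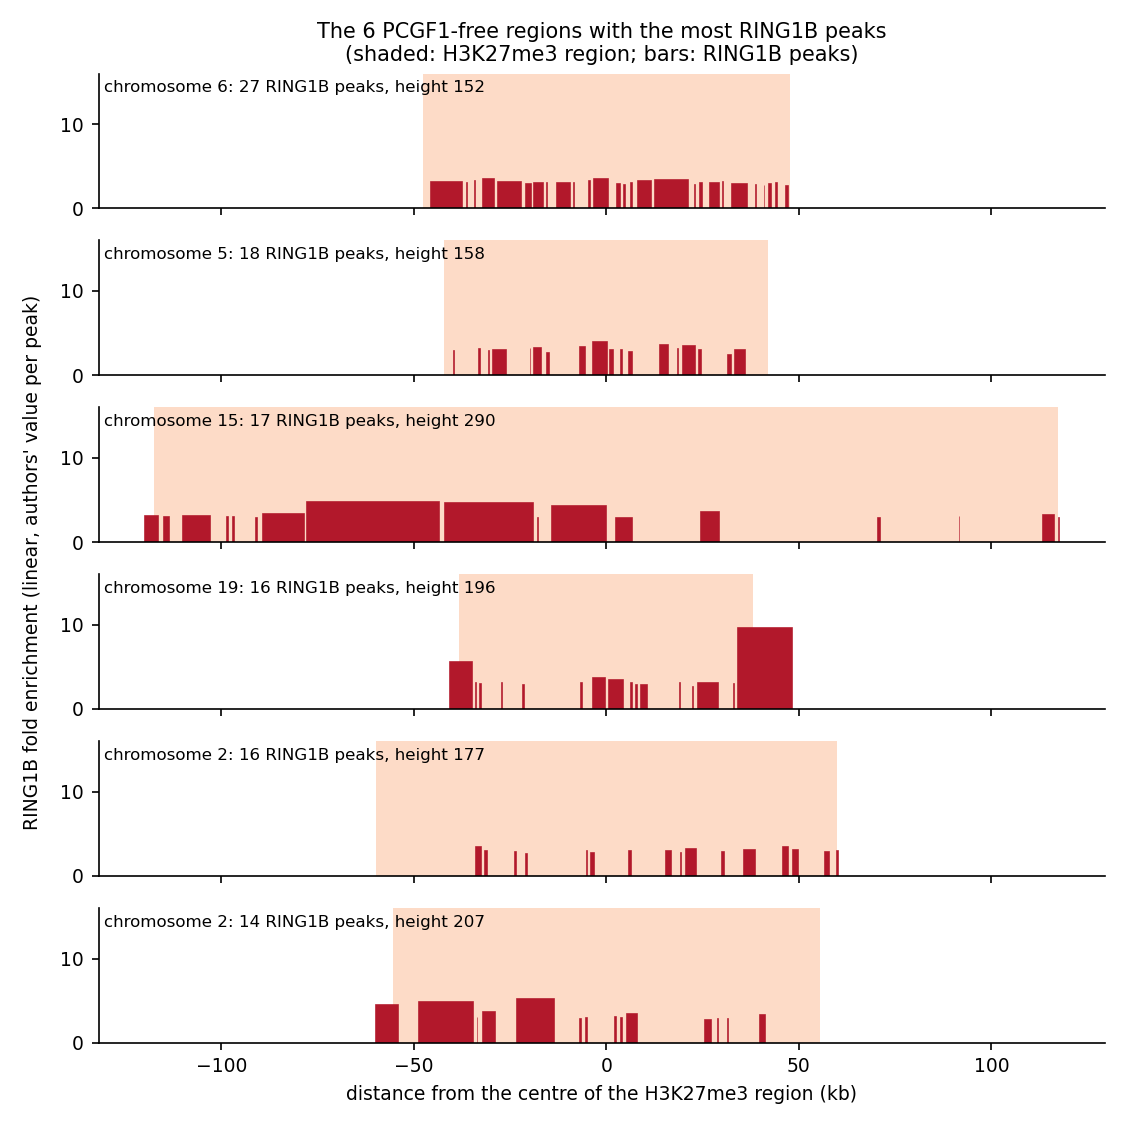
Maps of the 6 PCGF1-free H3K27me3 regions with the most RING1B peaks, each centred on the middle of the region (x axis, distance in kb). The shaded box is the H3K27me3 region, each bar is a RING1B peak as wide as the peak, and its height is the authors' linear fold enrichment (y axis). The regions on chromosomes 6 and 5 and the upper one on chromosome 2 show rows of low bars, and the one on chromosome 19 has a bar of 9.70 across its right border.

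The regions were wide. Their median width was 11910 bp (11130 to 12460), with a middle 50% of 6360 to 21972.5 bp, against 4290 bp (4130 to 4490) in regions with 1 RING1B peak and no PCGF1, 27050 bp (24360 to 28950) in regions with several peaks and PCGF1, and 1750 bp (1740 to 1760) in regions with neither. Of the 2004, 1118 (55.8%, 53.6 to 58.0) were wider than 10 kb, beside 6.26% of all H3K27me3 regions. The share was 21.3% with 1 RING1B peak and 90.2% with several peaks and PCGF1. A wide region can hold more peaks, so width is tied to the rule and nothing is read from this excess.

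The widest regions differed in how RING1B filled them. After the one on chromosome 15, chr14:63800160-63989430 (189270 bp) had 4 peaks of fold 3.30, 2.63, 4.86 and 7.62, no more than 1704 bp apart, and the stronger pair were 14378 and 14558 bp wide. In contrast, chr7:86621490-86782730 had 5 peaks that covered 4.65% of it, and chr2:33423210-33580360 had 3 that covered 3.43%, with no fold over 3.51 in either. At chr13:48716920-48865780, 3 peaks of fold 3.01 to 3.13 covered 0.711% of 148860 bp, the lowest coverage of all. At chr4:148142750-148275070 the 2 peaks were 90886 bp apart, the longest gap, and a PCGF1 peak lay 326 bp outside the region.

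H3K27me3 height, the highest signal of a region on a scale the file does not state, was not used by the rule. The median was 117 (115 to 119) in the 2004 regions, 93.0 (91.9 to 94.2) in regions with 1 RING1B peak and no PCGF1, 173 (169 to 179) in regions with several peaks and PCGF1, and 67.4 (67.3 to 67.5) in regions with neither. The regions thus stood between those with 1 peak and those with PCGF1, with intervals that did not overlap. The tallest 10% of the list, at a height of at least 104.6, took in 1301 of them (64.9%, 62.8 to 67.0), beside 10% of all regions. It took in 36.0% (34.7 to 37.4) of regions with 1 RING1B peak and 96.2% (93.2 to 98.1) of regions with several peaks and PCGF1.

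Height was greater in wider regions of every set, leaving aside classes with under 6 regions, and within a width class the regions were nearer to those with 1 RING1B peak. At 10 to 20 kb the median height was 121 (119 to 124) in the 540 regions, 116 (114 to 119) with 1 RING1B peak, 155 (139 to 165) with several peaks and PCGF1, and 102 (101 to 102) with neither. At 20 to 50 kb it was 143 (138 to 147), 135 (129 to 138), 178 (169.8 to 183) and 121 (119 to 122) in the same order of sets. The ratio of medians to regions with 1 RING1B peak was 1.26 over all widths and between 0.982 and 1.15 within the 6 width classes. Against regions with neither it was 1.74 over all widths and 1.17 to 1.23 within classes. Against regions with several peaks and PCGF1 it was 0.679 over all widths, and 0.755 to 0.880 in the 4 classes from 5 kb up. The intervals overlapped those of regions with 1 RING1B peak in the 4 classes up to 20 kb and not in the 2 above, where over 50 kb the medians were 175 (168 to 182) and 152 (146 to 166).

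**Figure D4:**
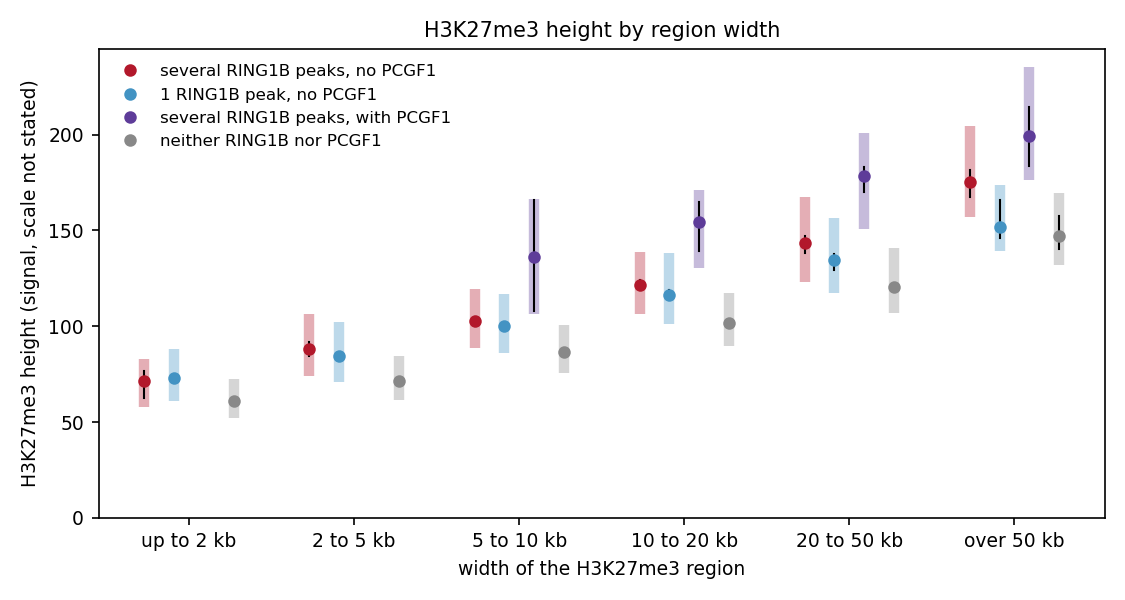
H3K27me3 height (signal, scale not stated, y axis) by width class of the region (x axis) for 4 sets of regions. Points are medians, pale bars the middle 50% of regions, and black lines order-statistic 95% intervals; classes with under 6 regions are not drawn. At 20 to 50 kb the medians were 143 with several RING1B peaks and no PCGF1, 135 with 1 RING1B peak, 178 with several peaks and PCGF1 and 121 with neither.

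Within a width class the height differed little by number of peaks. At 20 to 50 kb the median was 146 (142 to 152) with 2 RING1B peaks, 141 (134 to 148) with 3 and 138 (134 to 148) with 4 or more. At 10 to 20 kb it was 119.5 (116 to 124), 121 (117 to 128) and 124 (119.9 to 127). At 5 to 10 kb it was 102 (99.4 to 104.8), 103 (97.8 to 107) and 111 (94.6 to 125), and over 50 kb 172 (164 to 183), 173 (155 to 179.9) and 181 (166 to 196). The medians were thus higher with more peaks in 3 of these 4 classes and lower at 20 to 50 kb, and the intervals overlapped in all 4. Over all widths the median was 108 with 2 peaks and 155 with 6 or more. With the same number of peaks the distance to regions with PCGF1 stayed. With 2 peaks the median height was 108 (106 to 110) without PCGF1 and 169 (158 to 176) with it, and with 6 or more it was 155 (145 to 165) without and 209 (178 to 224) with it. With 2 peaks the regions without PCGF1 were also narrower, at a median of 8420 bp against 21485 bp with it. With 6 or more the medians were 39300 bp without and 70810 bp with it, so equal number did not make width alike.

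The share of a region above the authors' cutoff, which is not stated, gave the same order. Its median was 18.9% (18.6 to 19.3) in the 2004 regions, 16.1% (15.8 to 16.3) with 1 RING1B peak, 33.3% (31.2 to 35.4) with several peaks and PCGF1 and 10.9% (10.8 to 10.9) with neither. At 20 to 50 kb it was 22.8% (21.8 to 23.7), 22.2% (21.5 to 23.8), 32.6% (30.8 to 35.4) and 18.9% (18.5 to 19.4) in that order. The interval of the regions overlapped that of regions with 1 RING1B peak in this class, and lay below that of regions with PCGF1.

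The tallest of the 2004 regions was chr11:88819510-88834230, with a height of 838, which ranked 21 of all H3K27me3 regions. It was 14720 bp wide and held 3 RING1B peaks, the strongest with a fold of 4.17 and a -log10 q of 24.9. The RING1B peak of like fold at chr16:57237520-57243420, the next tallest region with a height of 473, had a fold of 4.14 and a -log10 q of 5.26. Then came chr1:133464350-133503440 with a height of 399 and 7 RING1B peaks, and chr17:35519860-35613550 with 382 and 10 peaks. The region at chr5:104500670-104512690 had 337 and 3 peaks, and chr17:35410720-35502260 had 326 and 12 peaks. The highest RING1B folds of the last 4 of these regions lay between 3.33 and 3.90. Of the 6 tallest, 5 were above 3.49, the median over the 2004 regions of the highest fold in a region. That median was 3.42 in regions with 2 peaks and 3.79 with 6 or more, and the number of peaks was not matched here. Over all 2004 the highest fold and the height had a Spearman's rho of 0.16.

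Fold enrichment and -log10 q are the authors' values for a peak, and serve here only to describe and rank peaks within the RING1B list. The RING1B peaks on the regions were slightly lower in fold and wider than those of the whole list. The median fold of the 5529 peaks was 3.18 (3.17 to 3.19), against 3.24 (3.23 to 3.25) for peaks on regions with 1 RING1B peak and no PCGF1 and 3.22 for all peaks of the list. Their median width was 1107 bp (1059 to 1156), against 1300 bp (1234 to 1374) with 1 RING1B peak 1382 bp (1233 to 1547) with several peaks and PCGF1 and 744 bp (733 to 755) for all RING1B peaks. A -log10 q of at least 5 was reached by 341 of them (6.17%, 5.55 to 6.83), beside 9.96% of all RING1B peaks. It was reached by 11.4% (10.5 to 12.3) of peaks on regions with 1 RING1B peak and 16.6% (14.3 to 19.0) of peaks on regions with several peaks and PCGF1. The top 10% of the list by fold, at 4.14 or more, took in 353 (6.38%, 5.75 to 7.06), beside 10% of all RING1B peaks, with 11.9% and 16.5% in the compared sets. Peaks wider than 5000 bp were 672 (12.2%, 11.3 to 13.0), beside 6.24% of all RING1B peaks, with 16.8% and 19.5% in the compared sets. All of these values come from the list that chose the regions, so they are given as a description.

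How far the sets differed in fold depended on the width of the peak. Peaks of 500 to 1000 bp had a median fold of 3.05 (3.04 to 3.07) on the regions and 3.06 (3.04 to 3.08) on regions with 1 RING1B peak. At 2000 to 5000 bp it was 3.35 (3.33 to 3.38) and 3.43 (3.40 to 3.46), against 3.39 (3.35 to 3.47) on regions with several peaks and PCGF1. At 5000 to 10000 bp it was 3.74 (3.66 to 3.79) and 3.84 (3.79 to 3.92), against 4.22 (3.83 to 4.71) on regions with PCGF1. Over 10000 bp it was 4.16 (4.06 to 4.25) in 225 peaks and 4.29 (4.19 to 4.46) in 267 peaks, against 5.73 (4.97 to 6.32) on regions with PCGF1. Peaks of up to 1000 bp had like folds in the 3 sets, and the distance to peaks on regions with PCGF1 was greatest in the widest peaks.

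**Figure D5:**
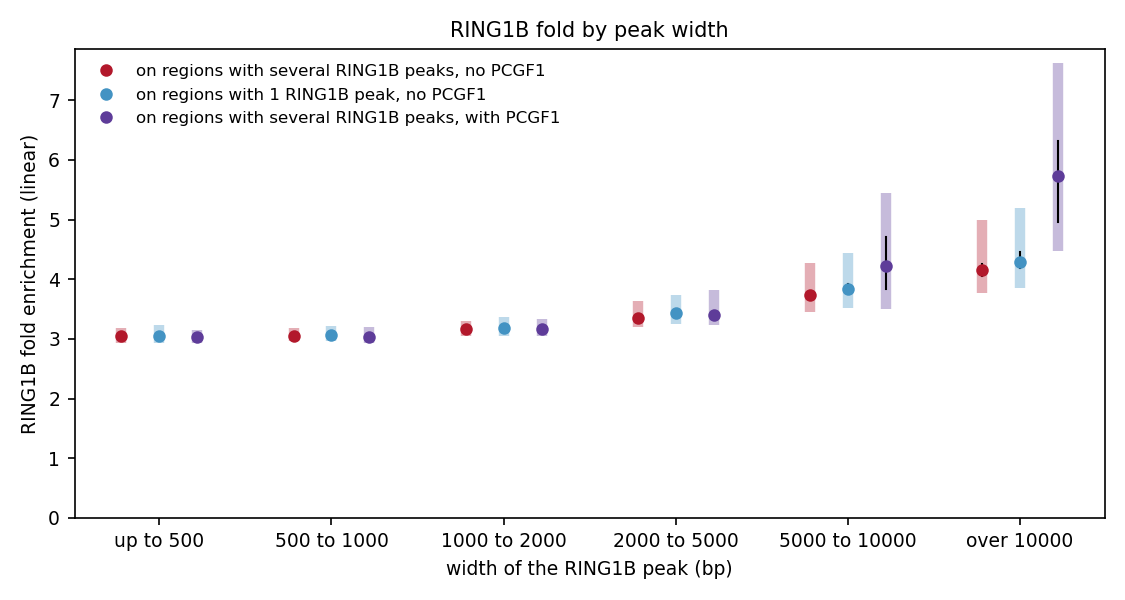
RING1B fold enrichment (linear, authors' value, y axis) by width class of the RING1B peak in bp (x axis) for peaks on 3 sets of H3K27me3 regions. Points are medians, pale bars the middle 50% of peaks, and black lines order-statistic 95% intervals. Up to 5000 bp the 3 medians lie close together, and over 10000 bp they were 4.16 with several RING1B peaks and no PCGF1, 4.29 with 1 RING1B peak and 5.73 with several peaks and PCGF1.

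Within a region the RING1B peaks were much alike in fold, but folds also varied little over the whole list. The middle 50% of all 24987 RING1B peaks had folds of 3.03 to 3.56. Whether peaks of the same region were more alike than peaks of different regions was not tested. The ratio of the highest to the lowest fold in a region had a median of 1.14 (1.13 to 1.15). It was at least 1.5 in 214 regions (10.7%, 9.36 to 12.1), at least 2 in 45 and at least 3 in 11, with a maximum of 5.05. In 1359 regions (67.8%, 65.7 to 69.9) the peak of highest fold was also the widest, and the widest overlap held a median of 65.3% of the RING1B bases of a region. The highest fold of a region had a median of 3.49 (3.46 to 3.51), against 3.27 (3.26 to 3.29) in regions with 1 RING1B peak, where there is no choice of peak, and 4.11 (3.97 to 4.45) in regions with several peaks and PCGF1. At equal number the order was the same: with 2 peaks it was 3.42 (3.39 to 3.45) without PCGF1 and 3.93 (3.77 to 4.21) with it. At least 1 peak with a -log10 q of 5 or more was found on 349 regions (17.4%, 15.8 to 19.1). It was found on 13.7% of regions with 1 RING1B peak and on 49.8% (43.9 to 55.8) of regions with several peaks and PCGF1. A region with several peaks has more chances to hold one, so the excess over regions with 1 RING1B peak is tied to the rule. Counted by peak the order was the other way, 6.17% on the regions and 11.4% with 1 RING1B peak, beside 9.96% of all RING1B peaks.

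RING1B often ran past the edge of the H3K27me3 region. Of the 5651 pairs of a region and a RING1B peak on it, 1581 (28.0%) crossed a border, against 56.5% in regions with 1 RING1B peak and 13.2% in regions with several peaks and PCGF1. In 1189 regions (59.3%) at least 1 peak did so. The medians that follow are over pairs, so a peak on several regions counts for each. Peaks that crossed were wider, with a median of 3097 bp (2883 to 3328) against 827 bp (797 to 862) for peaks wholly inside. They also had a higher fold, 3.41 (3.38 to 3.44) against 3.13 (3.12 to 3.14). Among peaks of 2000 to 5000 bp the medians were 3.39 (3.35 to 3.43) for peaks that crossed and 3.32 (3.30 to 3.36) for peaks inside. The folds were nearer to each other at like width.

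The strongest peak of a region crossed a border in 894 regions (44.6%, 42.4 to 46.8), and in 597 (29.8%, 27.8 to 31.8) more than 50% of its bases lay outside. In regions with several peaks and PCGF1 the strongest peak crossed a border in 26.8% (21.8 to 32.4) and lay more than 50% outside in 7.67% (4.87 to 11.4). In regions with 1 RING1B peak it crossed a border in 56.5% (55.1 to 57.9) and lay more than 50% outside in 37.8% (36.4 to 39.2). The regions thus stood between these sets, with intervals that did not overlap. They also stood between them in width, with medians of 4290 bp with 1 RING1B peak, 11910 bp here and 27050 bp with PCGF1. Crossing was not compared at like region width, and with 1 RING1B peak the strongest peak is the only one. For the part of the strongest peak inside the region, the centre was in the middle 50% of the region in 42.1% of regions. It was so in 53.5% with 1 RING1B peak and 58.2% with several peaks and PCGF1. A single peak over a whole region has its centre there by construction, and regions with several separate peaks cannot be covered so. The sets were nearer in other measures: the middle 50% held 52.2%, 51.9% and 55.6% of the RING1B bases in the same order, and the centres of 58.9%, 62.5% and 61.7% of the peaks that crossed no border. Of the RING1B peaks on the 2004 regions, 420 touched 2 or more H3K27me3 regions of any kind. Among them were 122 that each touched 2 of the 2004 regions, which involved 232 regions. H3K27me3 regions of the list were never closer than 1510 bp, and the nearest other region lay at a median of 1930 bp (1910 to 1970) from the 2004, against 2060 bp (2020 to 2090) from regions with 1 RING1B peak and 3630 bp (3600 to 3660) from regions with neither.

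PCGF1 was mostly far away. The nearest PCGF1 peak lay at a median of 244563 bp (226333 to 265651), taken over 2003 regions because 1 was on a contig with no PCGF1 peak. The median was 274262 bp (259186 to 293238) from regions with 1 RING1B peak and no PCGF1, and 650129 bp (643504 to 657197) from regions with neither. The shares with a PCGF1 peak within 100 kb were 30.3% (28.3 to 32.4), 27.4% (26.2 to 28.7) and 11.8% (11.7 to 12.0) in that order. Within 10 kb there was a PCGF1 peak at 127 of the regions (6.34%, 5.31 to 7.49), beside 1.25% of all H3K27me3 regions without PCGF1. It was 6.16% (5.49 to 6.87) in regions with 1 RING1B peak and 0.980% (0.927 to 1.04) in regions with neither. The regions and those with 1 RING1B peak had like shares, and both had more PCGF1 nearby than regions with neither. By width of the region the share showed no steady rise. It was 7.84% (2.18 to 18.9) up to 2 kb, 3.81% (1.98 to 6.56) at 2 to 5 kb and 7.31% (5.22 to 9.89) at 5 to 10 kb. Above that it was 6.48% (4.56 to 8.90) at 10 to 20 kb, 6.44% (4.39 to 9.06) at 20 to 50 kb and 7.14% (3.13 to 13.6) over 50 kb. All of these intervals overlapped. Of the 161 PCGF1 peaks within 10 kb, 147 lay on a RING1B peak and 53 on another H3K27me3 region.

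A few regions were tied to PCGF1 through their own RING1B peak. In 67 of the 2004 (3.34%, 2.60 to 4.23) a RING1B peak that touched the region went on beyond its border and held a PCGF1 peak there, by way of 62 RING1B peaks. The highest fold in these 67 had a median of 4.52 (4.10 to 5.13), against 3.47 (3.45 to 3.49) in the other 1937. Their H3K27me3 height was 109 (103 to 119), against 118 (116 to 119), with intervals that overlapped. This small group supplied 4 of the 6 regions of highest fold, 7 of the first 10, 11 of the first 20 and 15 of the first 50. Most of the first 50 thus lay outside it. The group was picked through a peak that crosses a border, and such peaks were wider and higher in fold. Folds of the group were not compared at like peak width.

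The region of highest RING1B fold, chr15:35236920-35243680, had a RING1B peak of fold 15.6 and 18145 bp, of which 227 bp (1.25%) were inside and on which 6 PCGF1 peaks lay. At chr14:122892760-122895420 a RING1B peak of fold 11.2 had 372 bp inside and held 8 PCGF1 peaks. At chr16:22147030-22156650 (fold 13.3) and chr10:40611470-40633730 (fold 10.7) the strongest peak held 1 PCGF1 peak and had 34.2% and 31.0% of its bases inside. In these 4 regions the strong RING1B was mainly outside the H3K27me3 region.

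The other 3 of the 10 regions of highest fold touched no RING1B peak that held PCGF1. At chr2:18569360-18590730 the RING1B peak had a fold of 13.4 and a width of 16578 bp, with 73.4% of it inside, and the nearest PCGF1 peak was 8.63 kb from the region. At chr10:44217910-44244610 the fold was 10.6 with 56.8% inside and PCGF1 39.3 kb away. At chr16:94075630-94120200, named after its values were seen, a peak of fold 10.5 and 12517 bp lay wholly inside a region of height 194, and the nearest PCGF1 peak was 363 kb away. These 3 regions held 3 RING1B peaks each.

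The share of H3K27me3 regions that qualified differed between chromosomes. They were 2.97% (2.45 to 3.56) of the H3K27me3 regions of chromosome 19, 2.58% (2.26 to 2.94) of chromosome 2 and 2.33% (1.96 to 2.73) of chromosome 11. They were 0.756% (0.554 to 1.01) of those of chromosome 8 and 0.435% (0.331 to 0.561) of those of X, where 59 of 13557 regions qualified. X had the most H3K27me3 regions of any chromosome and the lowest share among the chromosomes that had one. Among H3K27me3 regions with any RING1B peak the range was narrower, 31.7% on chromosome 19 and 19.7% on X, with 20.4% on 18 and 21.9% on 15. Among regions of X with several RING1B peaks, 93.7% (84.5 to 98.2) had no PCGF1, against 87.5% over all chromosomes. The median height of the regions was lowest on chromosome 16, at 97.7, and highest among the numbered chromosomes on 17, at 144. There were 4 regions on unplaced contigs.

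Other regions of the 2004 were often near. The nearest was at a median distance of 32260 bp (27490 to 38130), taken over 2003 regions because 1 was alone on its contig, and 1112 (55.5%, 53.3 to 57.7) had another within 50 kb, beside 8.27% of all H3K27me3 regions. Regions with 1 RING1B peak had one of the 2004 within 50 kb in 41.2% (39.8 to 42.6), and regions with several peaks and PCGF1 in 32.8% (27.4 to 38.5). In regions with neither it was 6.20% (6.07 to 6.33). Nearness to one of the 2004 was thus shared, to a lesser degree, by the other regions with RING1B. Regions with 1 RING1B peak had another of their own set within 50 kb in 62.7% (61.4 to 64.1). It was 4.88% (2.69 to 8.05) with several peaks and PCGF1 and 98.0% (97.9 to 98.1) with neither. The sets differ in size, and a larger set offers more regions to be near. Runs of 3 or more with under 50 kb between neighbours numbered 148 and took in 598 regions. The longest runs had 10 regions each. One, at chr1:162334190-162552700, had 23 RING1B peaks summed over its regions, 2 or 3 a region. Their highest fold was 5.005, under H3K27me3 heights of 54.6 to 125. The other, at chr10:18965620-19203800, had 35 RING1B peaks summed over its regions, 2 to 7 a region. Their highest fold was 4.52, under heights of 97.1 to 170.0. In these sums a peak on several regions counts for each, so distinct peaks can be fewer.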

How the data were processed

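Formaldehyde-fixed, sheared chromatin was precipitated and sequenced, per the labels' protocols. The submitters' processing notes list Bowtie2, Picard, SAMtools 1.6.0 and the builds mm9 and dm3 without roles; mm9 is taken for the mouse positions. Not given in the sources used here are the peak caller, threshold, control and pooling. Read depth is unknown.

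The RING1B and PCGF1 lists, in the broadPeak layout, hold the authors' fold enrichment over background and the authors' -log10 q. Their deposited score is 10 times that -log10 q, rounded down, and was not used. Per the file headers, the H3K27me3 list holds for each region a height, which is its highest signal on a scale not stated, the number of bases above a cutoff, and the height's p on a log scale, taken as the authors' -log10 p and used only for its range. The deposited positions run in steps of 10 bp for H3K27me3, printed as listed; RING1B and PCGF1 starts are printed 1-based.

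Regions were classed by overlap of at least 1 bp, with no filter, and all 2004 entered each summary other than the distances, which need another peak or region on the contig (n = 2003). Distances and gaps are bases between borders. Python 3.11.15, pandas 2.3.3, numpy 2.4.6, SciPy 1.17.1 and matplotlib 3.10.9 were used, and the overlap step was tested on simulated data. Sites named were the 6 regions with most RING1B peaks, greatest height, highest fold, greatest width and highest RING1B coverage, the regions nearest the limits of the rule, the longest runs, and 1 region marked as chosen after its values were seen. The regions, sets and alternatives were chosen with earlier results of these data known. Genes were not assigned and no sequence is printed, because the gene table used here belongs to GRCm38.p6 and not to mm9. Libraries other than the 6 were not analysed here.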

Additional observations from a re-analysis of the deposited data

How the results depend on the processing

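Each of 6 results was computed under 11 other settings, 8 planned and 3 chosen after seeing the data, and 35 of the 66 values stayed within the interval, or within 1.5 times for the count. With only RING1B peaks of a -log10 q of at least 5, the regions numbered 26, with a median width of 26505 bp, height of 169, fold of 4.73, 17.2% of gaps under 1 kb and 3.85% with PCGF1 within 10 kb. With the stronger 50% of RING1B peaks they numbered 654, at 15670 bp, 125, a fold of 3.50 and 29.8% of gaps. Both settings remove peaks by construction. With 50% of a RING1B peak required inside, width was 15980 bp, height 125, fold 3.15 and short gaps 34.1% (1423 regions). With the taller 50% of H3K27me3 regions, width was 12505 bp and height 119. With RING1B peaks under 1 kb apart merged, 1446 regions were left, at 14540 bp, a height of 122 and a fold of 3.20. With those under 2 kb apart merged, an added setting, 964 were left, at 18710 bp, 128.0 and 3.24. Merging left 0% of gaps under 1 kb by construction. With H3K27me3 regions under 2 kb apart merged, also added, width was 16560 bp, height 119.5 and short gaps 33.0%; merging under 1 kb changed nothing, since none lie that close. The share with PCGF1 within 10 kb was 5.30% where regions with PCGF1 within 1 kb were left out, by construction, and 3.72% where the 67 regions whose RING1B peak holds PCGF1 beyond the border were left out, the third added setting. The cause of the other shifts was not tested.

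No paired analysis was possible because each list stands for both libraries of its group and holds no value per library; no replicate could be left out. The number of regions rests on the RING1B threshold and on how peaks were split, as the counts of 26, 654 and 964 show. Depth is unknown, and lack of PCGF1 means only that none of the 2569 peaks of its list lies on the region.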
